A study of Mus musculus with 5 samples.

Results

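MHC class II-high microglia and macrophages were 711 cells, or 6.61% of the 10751 cells that passed quality limits in single-cell mRNA sequencing of FACS-sorted tdTomato+ cells from adult mouse retinas. The cells were chosen by their UMI counts, which stand for single captured mRNA molecules, in 3 steps. A barcode had to hold at least 1000 UMIs with at most 15% of them mitochondrial. The microglia and macrophage genes *Ctss*, *C1qa*, *C1qb*, *C1qc*, *Tyrobp* and *Fcer1g* had to make up at least 0.3% of UMIs and more than the Müller glia (MG) genes *Glul*, *Rlbp1*, *Slc1a3*, *Clu* and *Aqp4*, which held for 1172 cells, called myeloid cells below. Of these, the members had at least 0.5% of UMIs in the 4 MHC class II genes *Cd74*, *H2-Aa*, *H2-Ab1* and *H2-Eb1*, and the other 461 are called MHC class II-low cells. The values of these 15 genes chose the cells, so they are given as a description and were not tested.

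The mice were *Glast-CreERT2*; *Rosa26-Ai65* animals on a C57BL/6J background, aged 12-20 weeks, of both sexes and pooled. All groups received tamoxifen and an intravitreal ShH10 adeno-associated virus (AAV) that carried FlpO under a *Gfap* promoter, together with either *mKate2*, a red fluorescent protein used as the control, or *Yap5SA*, a form of the transcriptional coactivator YAP that stays active. Ai65 gives tdTomato only after both Cre and Flp recombination, so the label was meant for infected MG and their progeny, and GEO's labels call the sorted cells MG. Retinas were pooled per condition and taken 56 days after injection, 16 retinas with *mKate2* AAV and 21 with *Yap5SA* AAV. There were 2 libraries of *mKate2* AAV and 3 of *Yap5SA* AAV, none of which is stated to be a separate animal or culture, so p-values below measure the spread between captures only.

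Of the barcodes of *Yap5SA* AAV replicate 2, 1361 (99.8%) were also barcodes of replicate 1, and all of its 112 cells that met the rule were members of replicate 1. Between all other libraries, at most 0.218% of barcodes and no members were shared. The 2 libraries were taken as 1 capture, represented by replicate 1, which leaves 2 captures for each AAV. The captures held 1407 to 7729 barcodes and 13134827 to 50938304 UMIs. Members had a median of 20167 and 3994 UMIs in *mKate2* AAV replicates 1 and 2, and 13356 and 5359 UMIs in *Yap5SA* AAV replicates 1 and 3. Replicate 1 of each AAV was deposited from Cell Ranger 8.0.0 and the other 2 captures from 9.0.1, so values within each of these processing batches are given where the AAVs are compared.

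MHC class II molecules present peptides from material that a cell has taken up to CD4+ T cells. *H2-Aa* and *H2-Ab1* encode the chains of I-A and *H2-Eb1* the beta chain of I-E, while *Cd74* encodes the invariant chain that fills the peptide groove during transport. The peptide exchange factor H2-DM, opposed by H2-O, loads peptides in a late endosome after the proteases cathepsin S, cathepsin L and legumain have cut the invariant chain and the antigen. Transcription of the family depends on the coactivator CIITA, which acts through factors bound at X and Y boxes in the promoters. Microglia, the resident myeloid cells of the retina, carry little MHC class II at rest, whereas macrophages at the vessels, ciliary body and optic nerve head and cells that enter from the blood often carry more.

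Promoters of 2 genes of the rule (*H2-Eb1* and *H2-Aa*), of *H2-DMb1*, which was tested, and of *H2-Ob*, which had too few counts for the test, are shown so that their Y boxes can be compared. Sequences are those of RefSeq on GRCm38.p6, from 250 bases before to 50 bases after the gene start, 5′ to 3′ on the strand of the gene. The count files use GRCm39, so these coordinates are not those of the files. Capitals mark the Y box core, GATTGG, searched on both strands.
H2-Eb1, chr17:34305617-34305916, plus strand: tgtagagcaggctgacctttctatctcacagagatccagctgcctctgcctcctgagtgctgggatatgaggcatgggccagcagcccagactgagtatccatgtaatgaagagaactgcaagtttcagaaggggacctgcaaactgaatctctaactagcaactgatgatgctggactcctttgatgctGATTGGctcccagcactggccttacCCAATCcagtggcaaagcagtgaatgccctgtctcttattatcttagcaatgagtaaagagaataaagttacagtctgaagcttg
H2-Ob, chr17:34238655-34238954, plus strand: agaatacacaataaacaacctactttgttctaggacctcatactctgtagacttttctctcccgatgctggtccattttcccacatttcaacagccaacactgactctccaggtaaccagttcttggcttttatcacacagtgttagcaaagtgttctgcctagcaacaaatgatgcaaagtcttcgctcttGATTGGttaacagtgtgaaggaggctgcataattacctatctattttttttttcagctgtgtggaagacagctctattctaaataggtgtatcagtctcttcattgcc
H2-DMb1, chr17:34152941-34153240, plus strand: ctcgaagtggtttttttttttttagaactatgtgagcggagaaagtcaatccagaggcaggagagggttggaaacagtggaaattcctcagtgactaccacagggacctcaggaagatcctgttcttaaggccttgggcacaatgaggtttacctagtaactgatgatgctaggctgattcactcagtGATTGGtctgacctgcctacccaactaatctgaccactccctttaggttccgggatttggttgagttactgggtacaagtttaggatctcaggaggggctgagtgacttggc
H2-Aa, chr17:34287774-34288073, minus strand: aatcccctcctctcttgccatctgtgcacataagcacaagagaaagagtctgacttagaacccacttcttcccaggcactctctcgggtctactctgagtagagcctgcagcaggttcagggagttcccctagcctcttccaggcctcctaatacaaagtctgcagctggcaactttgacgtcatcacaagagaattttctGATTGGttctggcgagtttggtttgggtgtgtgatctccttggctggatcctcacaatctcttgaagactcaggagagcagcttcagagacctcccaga
On the strand of the gene, the Y box core began 60 bases before the gene start in *H2-Eb1*, 58 in *H2-Ob*, 62 in *H2-DMb1* and 49 in *H2-Aa*. *H2-Eb1* held a second copy on the other strand, nearer to the start. Among the 32851 promoters of all genes given by RefSeq, 16.1% held the core. It was in 17.2% of the promoters of genes that were higher in members in the comparison with MHC class II-low cells below, against 18.97% for all genes tested there. Of the 15 genes in the MHC class II pathway list, 12 had a promoter there, and *Cd74*, *H2-Ab1* and *Ciita* did not. The core was found in 8 of the 12, the 4 above and *H2-Eb2*, *H2-DMa* (in 1 of its 2 promoters), *H2-DMb2* and *H2-Oa*. Its place varied more over the 8 than over the 4 shown. Counted from the first of the 300 bases, on either strand, it began at 189 to 202 in the 4 shown. In *H2-Eb2* it began at 150, in *H2-DMa* at 52, in *H2-DMb2* at 160 and in *H2-Oa* at 207. The core was not found in the other 4, *Ctss*, *Ctsl*, *Lgmn* and *Ifi30*, which encode the proteases and the thiol reductase.

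The first question was how many such cells each AAV condition held. Members made up 0.894% of quality-passed cells in *mKate2* AAV replicate 1 (15 of 1677, 95% exact Clopper-Pearson interval 0.501% to 1.47%). In *mKate2* AAV replicate 2 they made up 9.74% (549 of 5637, interval 8.98% to 10.5%). In *Yap5SA* AAV replicate 1 the share was 10.3% (116 of 1127, interval 8.58% to 12.2%), and in *Yap5SA* AAV replicate 3 it was 1.34% (31 of 2310, interval 0.914% to 1.90%). These intervals cover counting error only. Each condition held 1 capture with about 10 in 100 and 1 with about 1 in 100, and the groups overlapped fully.

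The mean share of the *mKate2* AAV captures was 5.32% ± 6.25 (SD, n = 2) and that of the *Yap5SA* AAV captures 5.82% ± 6.33 (SD, n = 2). The latter was 0.501 percentage points higher, with p = 0.667 by a two-sided exact permutation test. With 2 captures against 2 the smallest p this test can give is 0.333. The difference was 9.40 points within the captures run with Cell Ranger 8.0.0 and -8.40 points within those run with 9.0.1, so its direction turned between batches. It also turned without *mKate2* AAV replicate 1 (-3.92 points) and without *Yap5SA* AAV replicate 1 (-3.97 points).

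Among myeloid cells the share of members was 55.6% (15 of 27, interval 35.3% to 74.5%) and 58.3% (549 of 942, interval 55.1% to 61.5%) in *mKate2* AAV replicates 1 and 2. It was 83.5% (116 of 139, interval 76.2% to 89.2%) in *Yap5SA* AAV replicate 1 and 48.4% (31 of 64, interval 35.8% to 61.3%) in *Yap5SA* AAV replicate 3. *Yap5SA* AAV replicate 1 was the highest of the 4 captures and the other *Yap5SA* AAV capture the lowest. The *mKate2* AAV captures averaged 56.9% ± 1.93 (SD, n = 2) and the *Yap5SA* AAV captures 66.0% ± 24.8 (SD, n = 2). They were 9.03 points apart, with p = 1 by the same exact test. Within batches it was 27.9 points with Cell Ranger 8.0.0 and -9.84 points with 9.0.1, and without *Yap5SA* AAV replicate 1 it was -8.48 points.

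**Figure D1:**
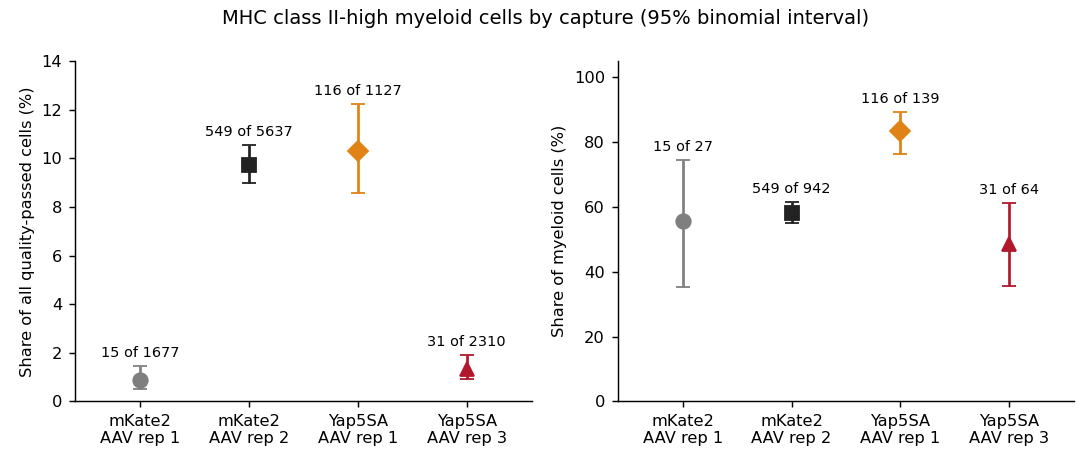
Share of MHC class II-high myeloid cells per capture, as percent of all quality-passed cells (left) and of myeloid cells (right), with points for the share and bars for the 95% exact binomial interval. The left panel shows 1 high and 1 low capture in each AAV condition, from 0.894% to 10.3%, and the right panel shares of 48.4% to 83.5%.

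The 4 MHC class II genes were among the most abundant mRNAs of the members and were at similar levels in all captures. *Cd74* was at 26275 and 28094 CPM in members of *mKate2* AAV replicates 1 and 2, and at 23852 and 21927 CPM in those of *Yap5SA* AAV replicates 1 and 3. *H2-Aa* was at 9956, 9183, 8701 and 7796 CPM in the same order, *H2-Eb1* at 9729, 7907, 9428 and 7115 CPM, and *H2-Ab1* at 7998, 8007, 7625 and 6894 CPM. CPM are UMIs of a gene over all UMIs of the cells of a capture, on a scale where 10000 CPM equal 1% of UMIs, and 3' counting does not depend on transcript length in the way full-length reads do. In MHC class II-low cells *Cd74* was at 230, 648, 1428 and 397 CPM, and in MG at 2.84 to 127 CPM.

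The mix of the 4 mRNAs was also steady. *Cd74* made up 48.1% to 52.8% of their sum in members, 39.4% to 49.7% in MG and 71.6% to 79.4% in MHC class II-low cells. At 1000 UMIs per cell, a depth to which all cells were thinned by random draw, *Cd74* was seen in 99.6% to 100% of members, 8.33% to 65.2% of MHC class II-low cells and 0.141% to 5.18% of MG.

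The median share of UMIs in the 4 genes was 5.22% and 4.61% over members of *mKate2* AAV replicates 1 and 2 and 3.98% and 3.88% over those of *Yap5SA* AAV replicates 1 and 3. Over all members it was 4.59%, with a highest value of 24.1%, and 626 members (88.0%) were at 1% or more and 324 (45.6%) at 5% or more. The range was continuous across the cut at 0.5%. Just inside it the lowest member had 0.506% and the 20th 0.603%, and just outside it the highest MHC class II-low cell had 0.492% and the 20th 0.412%. In all, 51 members lay between 0.5% and 0.75%, 61 MHC class II-low cells lay between 0.25% and 0.5%, and 129 of the 461 MHC class II-low cells had no UMI of the 4 genes.

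**Figure D2:**
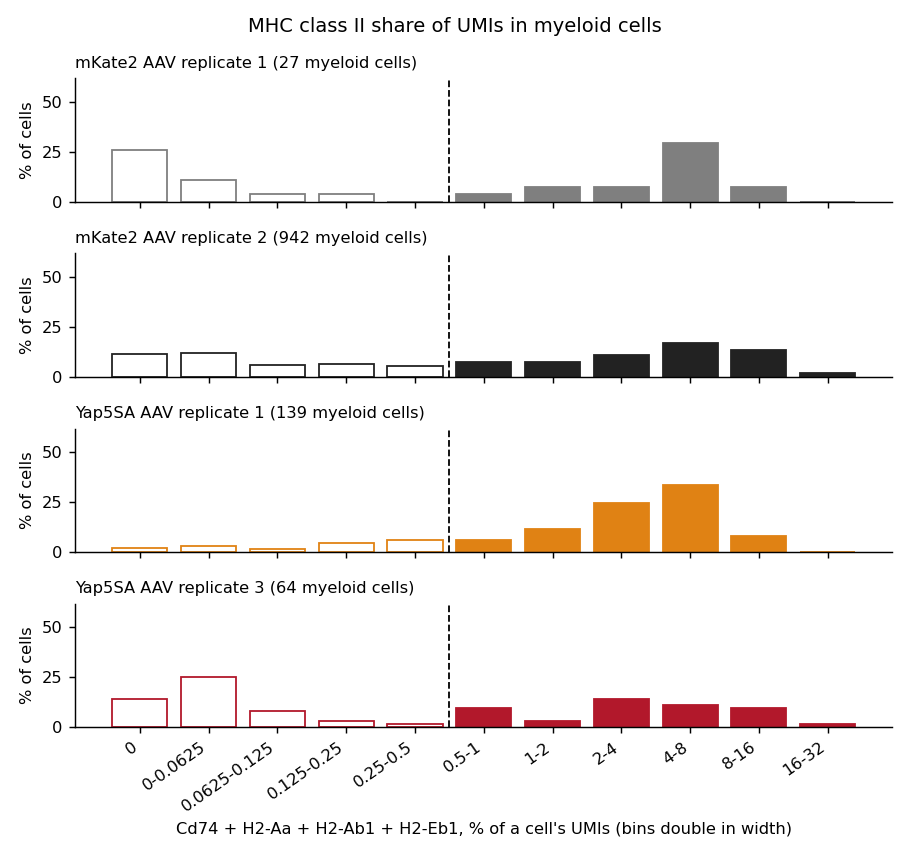
Distribution of the share of UMIs in *Cd74*, *H2-Aa*, *H2-Ab1* and *H2-Eb1* (x axis, percent of a cell's UMIs, in bins that double) over the myeloid cells of each capture (y axis, percent of cells), with filled bars for members and a dashed line at the 0.5% cut. In both *mKate2* AAV replicates and in *Yap5SA* AAV replicate 1 the fullest bin is 4% to 8%, and in *Yap5SA* AAV replicate 3 the fullest bin is the lowest one above 0.

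The most abundant genes of the members included several that the rule did not use. Of the 20 genes with the highest mean CPM, leaving out mitochondrial and ribosomal protein genes, 7 were genes of the rule. The others were led by *Apoe*, a lipid carrier that activated microglia secrete, which ranged from 19458 CPM in *mKate2* AAV replicate 1 to 49654 CPM in *Yap5SA* AAV replicate 3. MG express *Apoe* too, at 5590 to 10335 CPM. *Lyz2*, the lysozyme of myeloid cells and a fixed marker of this population, was at 4629, 6742, 5677 and 5304 CPM in members of *mKate2* AAV replicates 1 and 2, then *Yap5SA* AAV replicates 1 and 3, against 1.36 to 15.8 CPM in MG. *Cst3*, cystatin C, was at 5882 to 7554 CPM in members and 305 to 1507 CPM in MG, and *B2m* at 4855 to 6139 CPM in members and 399 to 1225 CPM in MG.

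Markers of other cells were low in the members. Summed over each list, 10 rod genes were at 24.2 to 172 CPM, 12 T and NK cell genes at 7.54 to 50.2 CPM, 8 neutrophil genes at 30.2 to 70.9 CPM and 8 endothelial and pericyte genes at 11.3 to 119 CPM. The 8 B cell genes summed to 78.5 to 166 CPM. The 10 MG genes, without *Apoe* and *Vim*, were at 173 to 776 CPM, against 18913 to 20989 CPM in MG. The rule used 5 of these 10 to choose both members and MG, so this gap is a description. Rod genes were higher in members than in MHC class II-low cells (7.41 to 156 CPM) of all 4 captures, B cell and neutrophil genes were lower, and their part in the results below was not tested.

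The label of the sort could be checked where tdTomato was in the gene list, which was the case for the captures run with Cell Ranger 8.0.0. A tdTomato UMI was found in 0 of 15 members of *mKate2* AAV replicate 1 (interval 0% to 21.8%, or up to 20.0% by a limit of 3 counts, for cells with a UMI) and in 4 of 116 members of *Yap5SA* AAV replicate 1 (3.45%, interval 0.947% to 8.59%). In MG of the same captures it was found in 43.8% and 62.3% of cells, at a median of 5722 and 10064 UMIs per cell. Thinned to 1000 UMIs, the shares were 0% of members in both captures and 14.9% and 18.9% of MG. In MHC class II-low cells of the same captures, without thinning, a tdTomato UMI was found in 1 of 12 (8.33%) and 1 of 23 (4.35%). The reporter's mRNA was thus seen in a smaller share of members than of MG, while GEO's labels call the sorted cells MG. A share below that of MG was not particular to members, since MHC class II-low cells had it too. The level of MG genes is no second check, since 5 of the 10 chose both members and MG.

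To learn what else went with MHC class II, members were compared with MHC class II-low myeloid cells of the same capture. Members had more mRNA of the peptide-loading factor H2-DM, of macrophage genes such as *Mgl2*, *Mrc1* and *Pf4* and of the integrin *Itgax*, and less of the microglia genes *P2ry12*, *Siglech* and *Gpr34* and of the lysosomal protease *Ctsd*. UMIs were summed per capture and class and tested over the 4 captures with the capture as a block, by the quasi-likelihood test of edgeR, adjusted after Benjamini and Hochberg, and the 15 genes of the rule were left out. Of 3984 genes tested, 159 (3.99%) passed an adjusted p of 0.05, 111 (2.79%) higher and 48 (1.20%) lower in members. The captures moved in the same direction for 154 of the 159, and in 78 the values of the 2 classes did not overlap. Genes that passed were selected for such a difference, so these 2 counts describe them and add no support. The same counts over all genes tested are not given. DESeq2 called 239 genes (6.00%), 167 (4.19%) higher and 72 (1.81%) lower, and 156 of the 159 were among them. The classes were cut on UMIs of the same cells, so the test describes which other genes differed across that cut. The number of calls rested on *Yap5SA* AAV replicate 1, without which 2 genes passed, *Mgl2* and *H2-DMb1*. Without any 1 of the other captures 137 to 146 genes passed, and without a block for the capture 14 passed.

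Stress genes and depth moved with the classes too, and their part in the results was not tested. The 18 immediate-early and heat shock genes summed to 15607, 10305, 11920 and 28202 CPM in members of *mKate2* AAV replicates 1 and 2, then *Yap5SA* AAV replicates 1 and 3, and to 5293, 7841, 6491 and 14940 CPM in MHC class II-low cells, so they were higher in members of all 4 captures. Of these genes 6 passed the test, all higher in members (*Atf3*, *Dusp1*, *Fosb*, *Hspa1b*, *Jun* and *Zfp36*), and none was lower. All 18 had a positive log2 fold change, with a median of 1.09 against 0.00 for all genes tested. *Hspa1b* and *Hspa1a* are near-identical copies, and reads may be split between them. The median depth of members was 20167, 3994, 13356 and 5359 UMIs and that of MHC class II-low cells 6897, 4114, 9564 and 5189 UMIs, so depth differed most in *mKate2* AAV replicate 1, where 1 cell held 14.6% of the UMIs of all members. When each cell was thinned to 1000 UMIs, 389 genes could be tested and 11 passed.

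**Figure D3:**
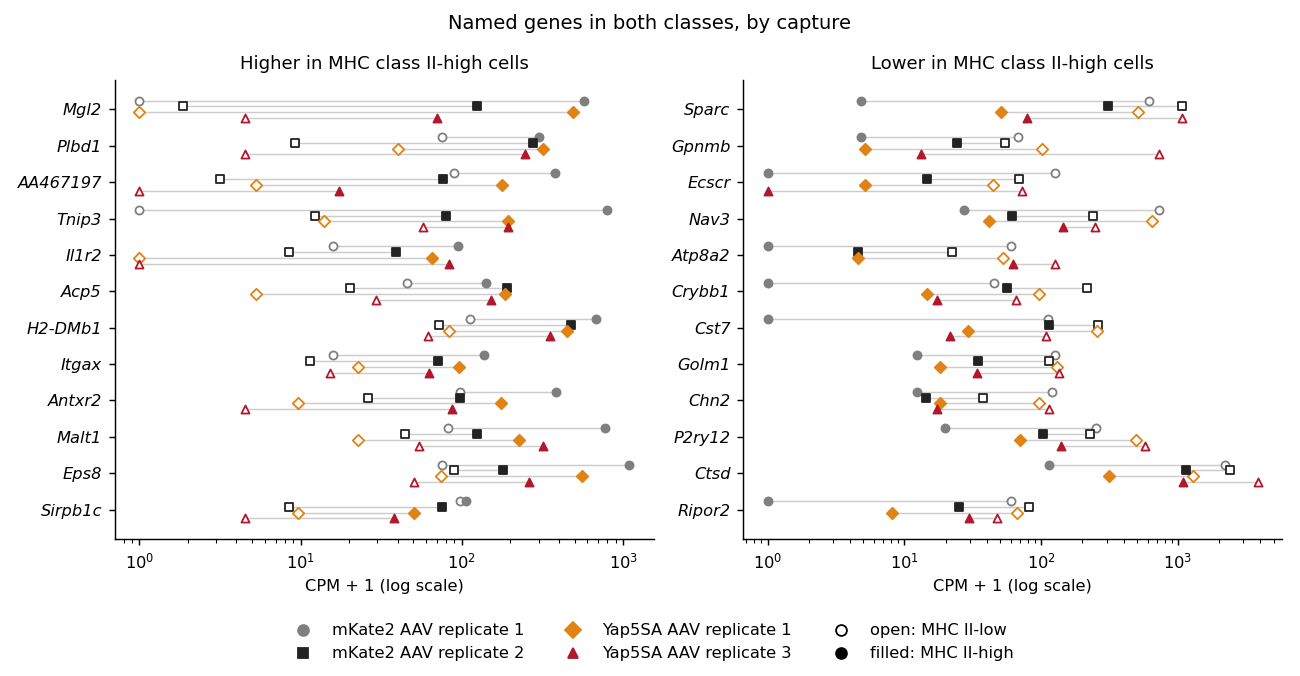
CPM + 1 (x axis, log scale) of the 12 genes with the largest rise (left) and the 12 with the largest fall (right) among genes that passed the test, with at least 50 CPM in the higher class and the same direction in all captures. Filled symbols are MHC class II-high cells and open symbols MHC class II-low cells of the same capture, and each line joins the classes of 1 capture.

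In the MHC class II pathway list, 6 genes beyond the rule could be tested, of which 3 were higher and 1 lower in members. The higher genes were both chains of H2-DM. *H2-DMb1*, a beta chain, was at 679, 477, 449 and 353 CPM in members of *mKate2* AAV replicates 1 and 2, then *Yap5SA* AAV replicates 1 and 3, and at 111, 71.2, 82.2 and 60.3 CPM in MHC class II-low cells. The classes did not overlap (log2 fold change 2.73 ± 0.24 SE, edgeR adjusted p = 0.000226). *H2-DMa*, the alpha chain, was at 519 to 597 CPM in members and 162 to 264 CPM in MHC class II-low cells, without overlap (log2 fold change 1.51 ± 0.23 SE, edgeR adjusted p = 0.00686).

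*H2-DMb2*, the other beta chain, which lies next to *H2-DMb1* and is so similar that reads may be split between them, was at 52.8, 51.7, 82.1 and 0 CPM in members and 44.5, 4.81, 4.33 and 3.55 CPM in MHC class II-low cells. The classes overlapped, since it was listed at 0 in members of *Yap5SA* AAV replicate 3 (log2 fold change 2.69 ± 0.63 SE, edgeR adjusted p = 0.0364). *Ctsl*, cathepsin L, was lower in members (339 to 807 CPM against 649 to 1564 CPM, log2 fold change -1.02 ± 0.22 SE, edgeR adjusted p = 0.0294). *Lgmn*, legumain, and *Ifi30*, the thiol reductase GILT, did not pass, at log2 fold changes of -0.61 and 0.32 (adjusted p = 0.182 and 0.596).

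Genes of the pathway with few counts were not tested. *Ciita*, the coactivator of the family, was at 60.4, 23.6, 103 and 8.20 CPM in members and at 0, 1.31, 8.66 and 0 CPM in MHC class II-low cells, so it was higher in members of each capture, with overlap between captures. It was seen in 7 of 15, 39 of 549, 61 of 116 and 2 of 31 members, shares that differ with depth as well. *H2-Ob*, whose product opposes H2-DM, was at 11.3 to 14.2 CPM in members and 0 to 8.66 CPM in MHC class II-low cells. *H2-Oa* was at 16.4 to 52.8 and 14.8 to 35.5 CPM, with overlap, and *H2-Eb2* was under 30 CPM in both classes.

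Of the 12 macrophage genes 8 were tested, of which 3 were higher in members, none was lower and 5 did not pass, with a median log2 fold change of 0.97 over the 8. *Mgl2*, a galactose-type lectin of tissue macrophages and some dendritic cells, had the largest rise of all genes named here. It was at 570, 123, 488 and 69.7 CPM in members, from 151, 416, 827 and 17 UMIs. In MHC class II-low cells it had 0, 2, 0 and 1 UMIs (edgeR log2 fold change 7.32 ± 0.54 SE, a size that depends on the prior count at so few UMIs, adjusted p = 8.01e-05). Members with a *Mgl2* UMI were 9 of 15, 119 of 549, 65 of 116 and 10 of 31, against 1 of 393 and 1 of 33 MHC class II-low cells in *mKate2* AAV replicate 2 and *Yap5SA* AAV replicate 3 and none in the other 2 captures.

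*Mrc1*, the mannose receptor CD206, was at 362, 216, 388 and 398 CPM in members and 14.8, 109, 203 and 128 CPM in MHC class II-low cells. The lowest member value was above the highest of the other class (log2 fold change 1.72 ± 0.38 SE, edgeR adjusted p = 0.0325). *Pf4*, a platelet chemokine that tissue macrophages also make, was at 133 to 513 CPM against 14.2 to 99.5 CPM (log2 fold change 2.26 ± 0.52 SE, edgeR adjusted p = 0.0353). In *mKate2* AAV replicate 1, which had the highest value, 118 of the 136 *Pf4* UMIs were in 1 of the 15 members. *F13a1*, *Folr2*, *Ms4a6c*, *Ms4a7* and *Stab1* did not pass, with log2 fold changes of -0.80 (*Folr2*) to 0.98 (*Ms4a6c*). *Cbr2*, *Cd163*, *Clec10a* and *Lyve1* had too few counts, and *Lyve1*, a marker of many vessel-associated macrophages, was at 0 to 11.3 CPM in members.

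Of 7 tested monocyte genes 2 were higher in members, *Lyz2* (log2 fold change 1.33 ± 0.29 SE, edgeR adjusted p = 0.0292) and the calcium-binding *S100a4* (1.68 ± 0.39 SE, adjusted p = 0.0346), and none was lower. *S100a4* was at 177, 60.0, 344 and 0 CPM in members, so its level was far from even between captures, and 44 of the 47 UMIs in *mKate2* AAV replicate 1 were in 1 cell. In *Yap5SA* AAV replicate 3 the direction was the other way, with 0 UMIs in 31 members and 2 UMIs in 33 MHC class II-low cells. *Ccr2*, the receptor by which monocytes leave the blood, was at 128, 40.2, 126 and 4.10 CPM in members and 119, 0.437, 0 and 0 CPM in MHC class II-low cells, and did not pass (log2 fold change 3.00 ± 0.84 SE, edgeR adjusted p = 0.0745). *Ly6c2*, *Chil3*, *Vcan* and *Itga4* were not tested. *Ly6c2*, a marker of inflammatory monocytes, was at 0 to 26.4 CPM in members. In MHC class II-low cells of *mKate2* AAV replicate 1 it was at 764 CPM, where all 103 of its UMIs were in 1 of the 12 cells.

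Of the 15 homeostatic microglia genes 13 were tested, of which 7 were lower in members and none was higher, all 13 log2 fold changes were negative, and their median was -1.34 against 0.00 for all genes tested. *P2ry12*, the ADP receptor that guides microglial processes, was at 18.9, 103, 69.1 and 139 CPM in members and 252, 225, 489 and 571 CPM in MHC class II-low cells. Every member value was below every value of the other class (log2 fold change -2.08 ± 0.35 SE, edgeR adjusted p = 0.0111).

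*Siglech*, a sialic acid-binding lectin, was at 42.5 to 65.6 CPM against 110 to 404 CPM (log2 fold change -1.83 ± 0.33 SE, edgeR adjusted p = 0.0159). *Gpr34*, a lysophosphatidylserine receptor, was at 22.6 to 143 CPM against 178 to 365 CPM (-1.49 ± 0.29 SE, adjusted p = 0.0207). *P2ry13* (log2 fold change -1.87) and *Selplg* (-1.34) also passed.

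*Sparc*, a matrix protein on the same list, had the largest fall, from 615, 1068, 511 and 1068 CPM in MHC class II-low cells to 3.77, 305, 49.6 and 77.9 CPM in members (log2 fold change -3.21 ± 0.49 SE, edgeR adjusted p = 0.00811). MG also express *Sparc*, at 909 to 1679 CPM, while the summed MG genes were at 326 to 764 CPM in MHC class II-low cells and 173 to 776 CPM in members. *Csf1r*, *Cx3cr1*, *Fcrls*, *Olfml3*, *Tmem119* and *Trem2* did not pass. In *Olfml3*, *Tmem119* and *Trem2* the classes did not overlap, at log2 fold changes of -1.62, -0.99 and -1.18 (adjusted p = 0.0582, 0.112 and 0.0598). *Csf1r*, the growth factor receptor that all these cells need, was at 366 to 742 CPM in members and 478 to 684 CPM in MHC class II-low cells. *Sall1* and *Slc2a5* were not tested.

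Of the 15 dendritic cell genes 6 were tested, of which 1 was higher in members and none was lower. That gene was *Itgax*, the integrin CD11c, which activated microglia share with dendritic cells, at 136, 70.0, 94.5 and 61.5 CPM in members and 14.8, 10.5, 21.6 and 14.2 CPM in MHC class II-low cells (log2 fold change 2.68 ± 0.32 SE, edgeR adjusted p = 0.00329). *Batf3*, *Cst3*, *Irf8*, *Naaa* and *Wdfy4* did not pass. *Cst3* was lower in members of each capture, at 5882 to 7554 CPM against 7665 to 18756 CPM (log2 fold change -0.70, adjusted p = 0.0951). The more defining genes *Flt3*, *Zbtb46*, *Xcr1*, *Clec9a* and *Ccr7* were each at 0 to 17.1 CPM in members. *Cd209a* reached 64.1 CPM in *mKate2* AAV replicate 1, where all 17 of its UMIs were in 1 cell.

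Cells were then described one by one, each thinned to 1000 UMIs. At least 1 UMI of 9 microglia genes (*P2ry12*, *Tmem119*, *Sall1*, *Siglech*, *Gpr34*, *Olfml3*, *P2ry13*, *Fcrls* and *Slc2a5*) was found in 55.7% of members and 75.05% of MHC class II-low cells. At least 1 UMI of 11 macrophage genes (the list without *Ms4a6c*) was found in 65.5% and 21.5%. The background, taken as the share in MG, was 0.769% for the microglia genes and 0.653% for the macrophage genes. Without thinning the shares were 86.4% and 90.2% for the microglia genes and 83.8% and 39.5% for the macrophage genes, and 5.77% and 4.56% in MG.

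Macrophage genes were seen in more members than MHC class II-low cells in each of the 4 captures, in 73.3% against 8.33%, 64.7% against 19.6%, 70.7% against 47.8% and 58.1% against 30.3%. Genes of both lists were seen in 263 members (37.0%) and in 68 MHC class II-low cells (14.8%). The lists thus did not split the members into separate cells of 1 kind and the other at this depth. Microglia genes were seen in 13.3% of members in *mKate2* AAV replicate 1, against 42.2% to 64.5% in the other captures, a value that rests on 15 cells. A UMI of 7 dendritic cell genes (*Flt3*, *Zbtb46*, *Cd209a*, *Xcr1*, *Clec9a*, *Ccr7* and *Itgae*) was seen in 18 members (2.53%), 0 MHC class II-low cells and 0.363% of MG. No member had 2 such UMIs at this depth. Without thinning a UMI was seen in 66 members (9.28%), 10 MHC class II-low cells (2.17%) and 3.15% of MG. Single members of *mKate2* AAV replicate 2 then held up to 20 *Cd209a*, 17 *Ccr7* and 13 *Xcr1* UMIs.

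The 12 genes with the largest rise were *Mgl2*, *Plbd1*, *AA467197*, *Tnip3*, *Il1r2*, *Acp5*, *H2-DMb1*, *Itgax*, *Antxr2*, *Malt1*, *Eps8* and *Sirpb1c*. *Plbd1*, a lysosomal phospholipase B-like protein, was at 302, 277, 318 and 246 CPM in members and 74.1, 8.30, 39.0 and 3.55 CPM in MHC class II-low cells (log2 fold change 3.997 ± 0.51 SE, edgeR adjusted p = 0.00329). It was even across the members of all 4 captures. *Acp5*, the tartrate-resistant acid phosphatase of osteoclasts and macrophages, was as even, at 140 to 190 CPM in members and 4.33 to 44.5 CPM in MHC class II-low cells (log2 fold change 3.16 ± 0.39 SE, adjusted p = 0.00329).

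Others of the 12, among them the inflammatory signalling genes *Tnip3*, *Il1r2* and *Malt1*, varied more between captures. *Tnip3*, an inhibitor of NF-kB signalling, was at 788, 78.6, 194 and 193 CPM in members and 0 to 56.8 CPM in MHC class II-low cells (log2 fold change 3.38 ± 0.55 SE, edgeR adjusted p = 0.0102). *Il1r2*, the decoy receptor for interleukin 1, was at 37.8 to 94.3 CPM against 0 to 14.8 CPM (3.22 ± 0.53 SE, adjusted p = 0.0104). *Malt1*, a protease of the NF-kB pathway, was at 773, 123, 224 and 320 CPM against 21.6 to 81.6 CPM (2.63 ± 0.34 SE, adjusted p = 0.00335). *Eps8*, an actin-capping adaptor, was at 179 to 1094 CPM against 49.7 to 87.8 CPM (2.54 ± 0.40 SE, adjusted p = 0.00939). For *Malt1*, *Eps8* and *Tnip3* the highest value was in *mKate2* AAV replicate 1, the capture with 15 members, where 119 of the 209 *Tnip3* UMIs were in 1 cell. In *Yap5SA* AAV replicate 3, 59 of the 78 *Malt1* UMIs were in 1 cell. The classes overlapped for *AA467197*, *Antxr2* and *Sirpb1c*, the last of which belongs to a family of near-identical genes.

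The 12 genes with the largest fall were *Sparc*, *Gpnmb*, *Ecscr*, *Nav3*, *Atp8a2*, *Crybb1*, *Cst7*, *Golm1*, *Chn2*, *P2ry12*, *Ctsd* and *Ripor2*. *Ctsd*, the aspartic protease cathepsin D of lysosomes, was at 113, 1135, 310 and 1094 CPM in members and 2187, 2390, 1285 and 3834 CPM in MHC class II-low cells (log2 fold change -2.03 ± 0.41 SE, edgeR adjusted p = 0.0222). *Gpnmb*, a glycoprotein of lipid-laden phagocytes, was at 3.77, 23.3, 4.13 and 12.3 CPM against 66.7, 53.3, 99.5 and 724 CPM (-3.09 ± 0.61 SE, adjusted p = 0.0211), and 21 of its 23 UMIs in MHC class II-low cells of *Yap5SA* AAV replicate 1 were in 1 cell. *Cst7*, cystatin F, an inhibitor of lysosomal cathepsins, was listed at 0 in *mKate2* AAV replicate 1 and was at 20.5 to 113 CPM in members of the other captures, against 106 to 259 CPM (-2.21 ± 0.45 SE, adjusted p = 0.0222). *Crybb1*, a beta crystallin that microglia also express, was at 0 to 54.95 CPM against 44.5 to 217 CPM (-2.22 ± 0.36 SE, adjusted p = 0.0104). *Golm1* was at 11.3 to 33.7 CPM against 114 to 135 CPM (-2.20 ± 0.32 SE, adjusted p = 0.00656). *Chn2* was lower too (-2.09), and MG had it at 145 to 203 CPM.

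Among the other lists, disease-associated microglia genes went both ways. Of 17 tested, 2 were higher in members, *Itgax* and the receptor tyrosine kinase *Axl* (log2 fold change 1.05 ± 0.23 SE, edgeR adjusted p = 0.0301), and 4 were lower, *Cd9*, *Cst7*, *Ctsd* and *Gpnmb*. *Apoe* was at 19458 to 49654 CPM in members and 18331 to 26525 CPM in MHC class II-low cells (log2 fold change 0.55, adjusted p = 0.354). *Spp1*, osteopontin, was at 73.2 to 575 CPM in members and 143 to 1365 CPM in MHC class II-low cells (log2 fold change -1.11, adjusted p = 0.0754). Of 16 lysosome and lipid genes 1 was higher (*Axl*) and 3 were lower (*Ctsd*, *Gpnmb* and the phagocytic receptor *Mertk*).

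Antigen presentation beyond class II was covered by lists of MHC class I and costimulation genes. Of 13 MHC class I presentation genes none passed in either direction, and *B2m*, the light chain of class I, was at 4855 to 6139 CPM in members and 5636 to 6812 CPM in MHC class II-low cells (log2 fold change -0.02 ± 0.18 SE, edgeR adjusted p = 0.978). *H2-K1*, *H2-D1* and *H2-Q7* are near-identical genes that may share reads. Of 7 tested costimulation and checkpoint genes 1 was higher, *Cd40*, the receptor for T cell help, at 37.7 to 82.0 CPM against 0 to 21.6 CPM (log2 fold change 1.73, adjusted p = 0.0364). *Cd86*, the ligand of CD28, was at 549 to 853 CPM against 253 to 862 CPM (log2 fold change 0.87, adjusted p = 0.0745). Of these 7 genes 6 had a positive log2 fold change (median 0.48), and the sum of the list was higher in members of all 4 captures. Of 12 interferon response genes and 12 interferon gamma target genes none passed, with median log2 fold changes of 0.32 and 0.38.

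**Figure D4:**
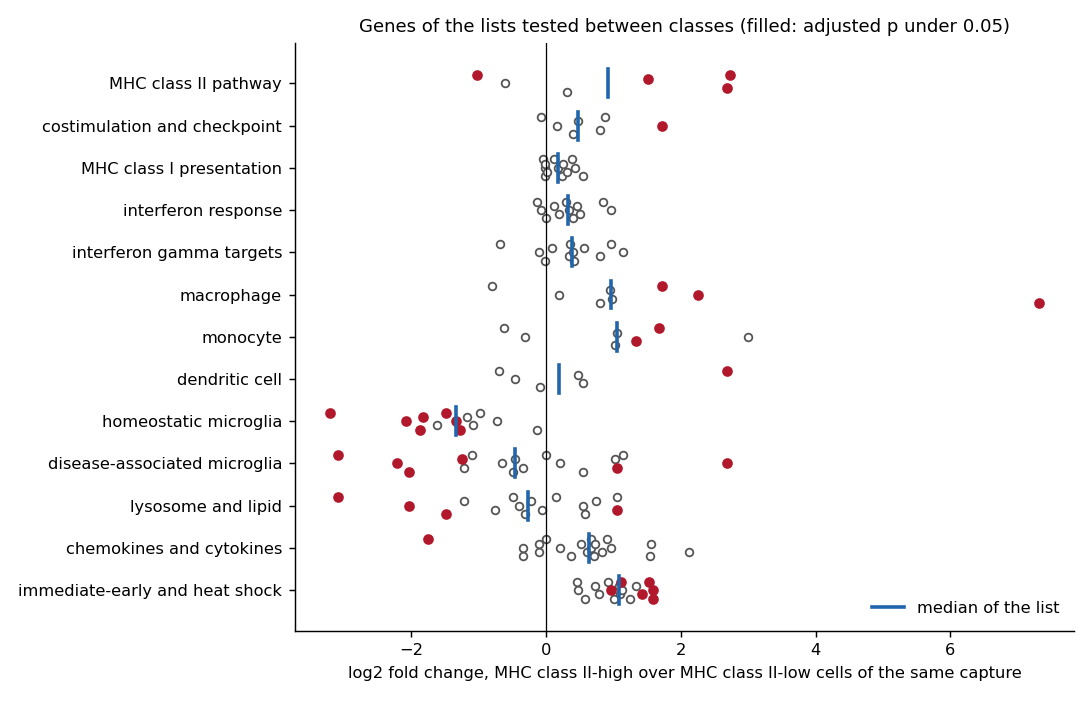
Log2 fold change (x axis) between MHC class II-high and MHC class II-low cells of the same capture for each tested gene of 13 lists (y axis), with filled points for genes at an edgeR adjusted p under 0.05, open points for the others and a bar at the median of each list. Homeostatic microglia genes lie left of 0 with a median of -1.34, and immediate-early and heat shock genes lie right of 0 with a median of 1.09.

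Complement, receptor and proliferation genes complete the lists. Of 5 complement genes beyond the rule none passed. Of 9 Fc and pattern receptor genes 1 was higher, *Cd14*, the coreceptor for lipopolysaccharide, at 977, 462, 315 and 775 CPM in members and 237, 221, 147 and 411 CPM in MHC class II-low cells (log2 fold change 1.39 ± 0.24 SE, edgeR adjusted p = 0.0125). Of the 12 cell cycle genes 2 were tested and 1 was lower, the microtubule regulator *Stmn1*, which MG have at 219 to 319 CPM. The 12 summed to 119 to 386 CPM in members and 323 to 1411 CPM in MHC class II-low cells, lower in members of each capture. Of the 10 YAP target genes in the files *Axl* alone could be tested between the classes, and it was higher in members. The 10 summed to 185 to 259 CPM in members and 111 to 148 CPM in MHC class II-low cells, higher in members of each capture.

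Within the members, the AAV conditions were compared next. The quasi-likelihood test of edgeR over the 4 captures called 0 of 7977 genes tested (0%) between the AAVs at an adjusted p of 0.05, and DESeq2 also called 0. At an unadjusted p under 0.05 there were 131 genes by edgeR and 60 by DESeq2. Both counts are below a share of 0.05 of the 7977 genes, the share that would fall there if no gene differed. With 3 captures the count was 77 without *mKate2* AAV replicate 1, 1 without *mKate2* AAV replicate 2, 15 without *Yap5SA* AAV replicate 1 and 32 without *Yap5SA* AAV replicate 3, each assuming that a lone capture varies like the others. With the processing batch as a term 1 gene passed.

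Of the 9 genes of the MHC class II pathway that were tested, none passed. *H2-DMa* was at 524 and 519 CPM with *mKate2* AAV and 597 and 541 CPM with *Yap5SA* AAV (log2 fold change 0.09 ± 0.42 SE, edgeR adjusted p = 1.00). *H2-DMb1* was at 679 and 477 CPM against 449 and 353 CPM, where both *Yap5SA* AAV captures were below both *mKate2* AAV captures (-0.55 ± 0.44 SE, adjusted p = 1.00). These 9 genes had log2 fold changes with a median of -0.05, 4 positive and 5 negative, against a median of -0.01 over all genes. *Ciita* had 0.64 ± 0.87 SE.

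The genes with the smallest unadjusted p are given as values, since none passed. Higher with *Yap5SA* AAV were *Gm11290*, *Ier3*, *Itsn1*, *Cpeb2* and *Chka*. *Ier3*, an early response gene, was at 181 and 68.3 CPM with *mKate2* AAV and 575 and 475 CPM with *Yap5SA* AAV. *Chka*, choline kinase alpha, was at 249 and 189 CPM against 515 and 955 CPM. *Gm11290* was listed at 0 in both *mKate2* AAV captures and was at 41.3 and 607 CPM with *Yap5SA* AAV, where 1 cell held 55 of 70 UMIs in replicate 1 and 1 cell held 138 of 148 in replicate 3. Likewise 72 of the 77 *Cpeb2* UMIs, 18 of the 27 *Itsn1* UMIs and 107 of the 233 *Chka* UMIs in replicate 3 were in 1 cell for each gene.

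Lower with *Yap5SA* AAV were *Mgarp*, *Il1b*, *Naaa*, *Wfdc17* and *Spp1*. *Il1b*, interleukin 1 beta, was at 1430 and 583 CPM with *mKate2* AAV and 465 and 262 CPM with *Yap5SA* AAV (log2 fold change -1.48 ± 0.53 SE, edgeR adjusted p = 1.00). *Spp1* was at 189 and 575 CPM against 73.2 and 164 CPM. *Mgarp* was at 34.0 and 260 CPM against 23.03 and 20.5 CPM, and MG had it at 3346 to 4023 CPM. In members of *mKate2* AAV replicate 2, 340 of its 879 UMIs were in 1 cell. Of the 18 immediate-early and heat shock genes 16 had a positive log2 fold change between AAVs (median 0.68) and none passed, and their sum was highest in *Yap5SA* AAV replicate 3. Of the 10 YAP target genes in the files 4 were tested between AAVs. None passed, and 3 of the 4 had a positive log2 fold change (median 0.45, against -0.01 over all genes). The 10 summed to 185 and 228 CPM with *mKate2* AAV and 259 and 197 CPM with *Yap5SA* AAV, with overlap.

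Several secreted factors of the members varied widely between captures of the same AAV. *Ccl8*, a chemokine for monocytes and T cells, was at 7.54 and 3499 CPM in members of *mKate2* AAV replicates 1 and 2 and at 1923 and 1746 CPM in those of *Yap5SA* AAV replicates 1 and 3. It was seen in 2 of 15, 323 of 549, 65 of 116 and 13 of 31 members. Thus *mKate2* AAV replicate 1 stood apart from the other 3 captures, although its members were the deepest.

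*Cxcl9*, a chemokine induced by interferon gamma, was at 7.54, 606, 413 and 16.4 CPM in the same order, high in 1 capture of each AAV. *Ccl5* was at 67.9, 446, 339 and 28.7 CPM and *Cxcl13* at 0, 265, 221 and 28.7 CPM, with the same captures high. *Cxcl2*, a neutrophil chemokine, was at 4350, 873, 3691 and 1189 CPM, high in both captures run with Cell Ranger 8.0.0. *Ccl12* was at 1026 and 1069 CPM with *mKate2* AAV and 1795 and 2164 CPM with *Yap5SA* AAV, without overlap (log2 fold change 0.89, edgeR adjusted p = 1.00). *Tgfb1* (135 to 166 CPM), *Il1a* (189 to 245 CPM) and *Ccl6* (193 to 277 CPM) were even across all 4 captures.

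**Figure D5:**
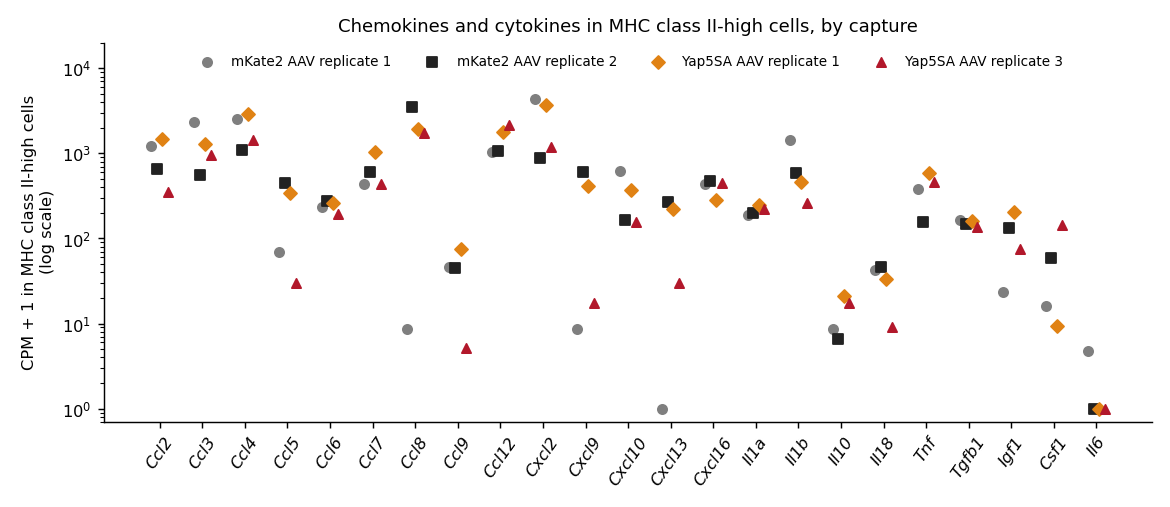
CPM + 1 (y axis, log scale) of 23 chemokine and cytokine genes (x axis) in MHC class II-high cells, with 1 symbol for each capture. *Cxcl9* spreads over more than 10-fold between captures of each AAV, and *Ccl8* and *Cxcl13* do so between those of *mKate2* AAV alone. *Tgfb1*, *Il1a* and *Ccl6* lie close together.

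Between members and MHC class II-low cells, 20 of the chemokine and cytokine genes were tested and 1 differed. *Cxcl13*, the B cell chemokine, was lower in members, at 0 to 265 CPM against 35.5 to 1129 CPM (log2 fold change -1.76 ± 0.39 SE, edgeR adjusted p = 0.0301). *Ccl8* (log2 fold change 2.12, adjusted p = 0.0568), *Cxcl16* (0.83, adjusted p = 0.0568) and *Cxcl2* (1.56, adjusted p = 0.0780) did not pass. Whether the difference between the classes itself differed between AAVs was tested as an interaction, and 1 gene of 5169 (0.0193%) passed, *Mmp12*, which no longer passed without *Yap5SA* AAV replicate 1.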

How the data were processed

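The members and gene lists were chosen with earlier results of these data known. The authors made the deposited UMI counts with Cell Ranger and GRCm39, limited to called cells, with no normalization. The labels give version 8.0.0, while file headers give 8.0.0 for 3 libraries and 9.0.1 for *mKate2* AAV replicate 2 and *Yap5SA* AAV replicate 3. All libraries list the same 33696 genes, and those of 8.0.0 also tdTomato. Depth per capture was 13134827 to 50938304 UMIs, and the number of members per capture, 15 to 549, limits the precision.

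Members were chosen from UMIs as described, with no doublet caller and no doublets removed. MG were cells in which the MG genes of the rule made up at least 0.3% of UMIs and more than the myeloid genes. Counts were summed per capture and class, kept where filterByExpr passed them and scaled by TMM. The test was the quasi-likelihood test of edgeR, with p adjusted after Benjamini and Hochberg and a threshold of 0.05. A capture entered a fit with at least 10 cells. The steps were tested on simulated data. DESeq2, other cuts, depths, mitochondrial limits, scaling, filters, thinning and leaving out each capture were alternatives.

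An X box-like pattern was also searched in the promoters and is not reported here. Genes named were the members of 5 lists (MHC class II pathway, homeostatic microglia, macrophage, monocyte and dendritic cell), the 12 that rose most and the 12 that fell most among those that passed with at least 50 CPM in the higher class and the same direction in every capture, and, since none passed between AAVs, the 5 in each direction with the smallest p at a mean of at least 50 CPM. Of the listed genes, 2 are not reported here by name. Other genes named as examples of a list were chosen after their values were seen. Tests ran in R 4.3.3 (edgeR 4.0.16, DESeq2 1.42.0, limma 3.58.1), and all else in Python 3.11.15 (scipy 1.17.1, pandas 2.3.3, matplotlib 3.10.9, numpy 2.4.6).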

Additional observations from a re-analysis of the deposited data

Results flagged for a closer look

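*Mmp12*, macrophage elastase, was the 1 gene whose difference between MHC class II-high and MHC class II-low cells differed between AAVs (edgeR interaction log2 -12.78 ± 1.13 SE, adjusted p = 0.000483). It was at 517, 47.6, 113 and 0 CPM in members of *mKate2* AAV replicates 1 and 2, then *Yap5SA* AAV replicates 1 and 3, and at 0, 0, 1402 and 0 CPM in MHC class II-low cells. The value in MHC class II-low cells of *Yap5SA* AAV replicate 1 came from 2 of 23 cells with 324 UMIs in all, 163 of them in 1 cell. Without that capture 17 genes passed and *Mmp12* was not among them. DESeq2 called 0 genes in this test, and 86 genes had an unadjusted p under 0.05 by edgeR and 43 by DESeq2. Both counts are below a share of 0.05 of the 5169 genes tested, the share that would fall there if no gene differed.

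The difference in the share of members between AAVs turned its direction between processing batches. Of quality-passed cells it was 9.40 percentage points (*Yap5SA* minus *mKate2* AAV) among captures run with Cell Ranger 8.0.0 and -8.40 points among those run with 9.0.1. Of myeloid cells it was 27.9 and -9.84 points. Each batch holds 1 capture for each AAV, so this difference between batches was not tested.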

How the results depend on the processing

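No paired analysis was possible because, by replicate number, the conditions share number 1 alone once *Yap5SA* AAV replicate 2, which holds the cells of replicate 1, is left out. The AAV difference in the share of quality-passed cells was -0.253 points at a mitochondrial limit of 10% and -3.97 to 4.98 points with a capture left out, with the reversals at -3.92 and -3.97 points. The difference in the share of myeloid cells was -8.48 to 26.5 points with a capture left out. The 159 genes called between classes became 75 at a class II cut of 0.25% of UMIs, 257 at 1%, 239 with DESeq2, 542 with no filter on low counts, 14 with no block for the capture, 11 of 389 tested when thinned to 1000 UMIs, and 2 to 146 with a capture left out. Between AAVs the 0 calls became 20 with no filter, 1 (208 at an unadjusted p under 0.05, against 131) with the processing batch, which holds 1 capture of each AAV, as a term and 1 to 77 with a capture left out. The interaction gave 8 calls at a minimum of 2000 UMIs, 5 with no filter, 0 with DESeq2 and 6 to 28 with a capture left out. The causes were not tested. At 2000 UMIs *mKate2* AAV replicate 1 had too few MHC class II-low cells and left the fits of both classes. The 50 called genes that were named or in a list kept their direction in all 703 refits and lost their call in 171, of which 48 were without *Yap5SA* AAV replicate 1. *Apoe*, *Vim* and *Gngt2*, which myeloid cells express, did not count as RNA of other retinal cells when such cells were left out. Members with 15 and 31 cells limit what *mKate2* AAV replicate 1 and *Yap5SA* AAV replicate 3 can show of genes with few counts.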
